A study of Mus musculus with 10 samples.

Results

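The contractile apparatus of muscle was followed through 8 genes in 2 CUT&RUN tables from cultured mouse muscle stem cells (MuSCs): Ttn, Neb, Myh3, Actc1, Acta1, Tnnt2, Myl1 and Des. Members were the peaks that the tables list with one of these gene symbols, taken singly and summed over the gene identifier. In the table for histone H4 monomethylated at lysine 20 (H4K20me1), 18 of 44925 peaks belonged to 3 of the genes, Ttn with 10, Neb with 7 and Des with 1. In the table for elongating RNA polymerase II, recognised by phosphoserine 2 in its tail (Pol II S2P), 236 of 51322 peaks belonged to 5 of the genes, Ttn with 176, Neb with 47, Des with 8, Tnnt2 with 3 and Myl1 with 2. Myh3, Actc1 and Acta1 had no listed peak in either table, and Tnnt2 and Myl1 had none for H4K20me1.

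The proteins of these genes build the sarcomere, the contractile unit of striated muscle, or tie it to its neighbours. Titin (Ttn) is a giant spring that runs from the Z-disc to the M-band, nebulin (Neb) lies along the thin filament, Acta1 and Actc1 encode the skeletal and cardiac actins of that filament, and Tnnt2 encodes the troponin T of heart and of immature skeletal muscle. Myh3 is the embryonic myosin heavy chain, Myl1 an essential myosin light chain, and desmin (Des) the intermediate filament that links neighbouring myofibrils and is already present in myoblasts. MuSCs are the satellite cells from which skeletal muscle regenerates, and they mostly switch these genes on once they leave the cell cycle and fuse. H4K20me1 covers broad domains over gene bodies and is the substrate that KMT5B turns into H4K20me2, whereas serine 2 phosphorylation marks elongating polymerase and typically accumulates toward and beyond the ends of transcribed genes.

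Ctrl cells carried Pax7CreERT and wild-type Suv4-20h1 (Kmt5b) alleles, and sKO cells carried Pax7CreERT and the Suv4-20h1 knockout. The Cre recombinase of both genotypes is driven by Pax7, so the deletion was made in satellite cells of adult mice by tamoxifen, and the cells were then grown in culture. Each antibody was used on 2 libraries per genotype, which the study describes as biological replicates, and the IgG libraries, 1 per genotype, were not analysed here. Values are scores, the authors' spike-in normalised coverage of each peak in whole numbers, and they grow with peak length, so levels of different genes are compared only per kb of peak.

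The H4K20me1 scores summed over all peaks ran from 15218720 to 20432644 in Ctrl, against 32194136 to 35046570 in sKO, and the Pol II S2P scores from 3257665 to 4885638 over the 4 libraries. Over Kmt5b itself the Pol II S2P score was 24 and 62 in Ctrl against 48 and 22 in sKO, ranges that overlap, and where its peaks lie relative to the deleted exons was not checked. Of the satellite cell and myoblast markers, 7 of 9 had a Pol II S2P peak, all but Myf5 and Cdh15 (summed score 5732 to 6479 in Ctrl and 4812 to 6981 in sKO). The member Des gave 2262 and 2635 in Ctrl and 3212 and 1987 in sKO of that sum. Within it Myod1 had 1329 and 1110 in Ctrl against lower scores of 887 and 649 in sKO. Of the markers of differentiating muscle, 4 of 6 had a peak, all but Mymx and Myh3 (550 to 676 and 544 to 879), whereas 0 of 5 cardiac markers had one. Peaks were also listed for 5 of 6 smooth muscle and pericyte markers (1771 to 2030 in Ctrl and 1589 to 2167 in sKO). They were listed for 2 of 6 haematopoietic markers (900 to 997 and 874 to 1368), mostly from Cd68 and without Ptprc. These 2 sums exceeded that of differentiating muscle in each library. Peaks were further listed for 2 of 5 endothelial markers without Cdh5 and Kdr (133 to 211 and 151 to 256), and for 2 of 6 fibroblast markers without Pdgfra (93 to 1165 and 81 to 157). One of the last, the collagen gene Col1a1, had 1093 in Ctrl replicate 1 against 16 in Ctrl replicate 2 and 75 and 31 in sKO, so that library stands apart for this marker. Without it 0 of the 5 members were still called for Pol II S2P, with log2 fold changes from -0.66 (Myl1) to -0.061 (Des).

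The sequences before the start sites are shown for the genes at which Pol II S2P peaks reached a start (Des, Ttn, Neb and Acta1) and for Actc1, the closest relative of Acta1, at which none did. Each line gives the 250 bases before the start on the coding strand, from RefSeq on GRCm38.p6 or, for Neb, from the genome before the start of the transcript Neb-203. The promoter table held 7 of the 8 genes, all but Neb. Capitals mark the E-box CANNTG, the TATA box TATAAA, the MCAT site CATTCC, the CArG box and the MEF2 site, each sought on both strands, with overlaps allowed.
Des, chr1:75360042-75360291, plus strand: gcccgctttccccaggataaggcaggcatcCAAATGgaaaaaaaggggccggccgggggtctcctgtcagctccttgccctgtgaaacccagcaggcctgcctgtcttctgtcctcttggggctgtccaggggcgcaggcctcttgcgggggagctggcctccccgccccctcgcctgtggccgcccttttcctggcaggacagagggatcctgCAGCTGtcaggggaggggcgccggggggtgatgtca
Ttn, chr2:76982548-76982797, minus strand: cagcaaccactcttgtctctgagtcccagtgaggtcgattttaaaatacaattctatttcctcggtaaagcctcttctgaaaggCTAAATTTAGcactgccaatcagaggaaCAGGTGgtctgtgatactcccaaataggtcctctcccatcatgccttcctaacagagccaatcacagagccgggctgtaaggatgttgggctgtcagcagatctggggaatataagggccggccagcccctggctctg
Neb, chr2:52335135-52335384, minus strand: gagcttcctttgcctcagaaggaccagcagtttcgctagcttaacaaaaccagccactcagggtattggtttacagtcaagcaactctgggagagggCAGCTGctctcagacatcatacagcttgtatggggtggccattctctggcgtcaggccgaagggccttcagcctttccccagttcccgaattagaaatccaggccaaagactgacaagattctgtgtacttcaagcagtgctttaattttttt
Acta1, chr8:123894776-123895025, minus strand: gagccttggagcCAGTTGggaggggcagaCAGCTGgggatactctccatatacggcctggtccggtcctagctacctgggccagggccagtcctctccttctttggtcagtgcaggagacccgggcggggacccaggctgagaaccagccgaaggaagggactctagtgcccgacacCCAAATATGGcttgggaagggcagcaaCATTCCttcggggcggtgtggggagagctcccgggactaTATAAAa
Actc1, chr2:114052876-114053125, minus strand: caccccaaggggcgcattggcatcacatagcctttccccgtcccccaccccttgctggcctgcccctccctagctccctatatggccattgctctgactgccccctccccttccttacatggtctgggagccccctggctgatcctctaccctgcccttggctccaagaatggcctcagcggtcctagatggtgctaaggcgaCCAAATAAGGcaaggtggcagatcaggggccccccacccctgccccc

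Both actin genes held a CArG box, 73 bases before the RefSeq start of Acta1 and 47 before that of Actc1. This motif was found in 1.47% of the 32851 promoter windows of this length. RefSeq starts can differ from the gene starts given below. That of Actc1, at 114052875, lies inside the gene, whose annotated start is at 114053548. The Ttn window held a MEF2 site 166 bases before the start, as did 2.92% of all windows. E-boxes occurred in the windows of Des (2), Ttn (1), Neb (1) and Acta1 (2) and in 66.2% of all windows, so they are common. Acta1 also held a TATA box and an MCAT site, which 12.4% and 12.6% of all windows hold. A match in these letters is a description of the window and shows no binding.

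H4K20me1 was called higher in sKO over Neb and was not called over Ttn or Des, and the libraries of the genotypes overlapped over Des alone. The deposited scale shows higher H4K20me1 in sKO for nearly every gene, so each member is set beside all genes as well as beside 0. The H4K20me1 score of Ttn (ENSMUSG00000051747, chromosome 2, 76703980 to 76982547, minus strand) was 3700 and 4809 in Ctrl against 5439 and 6022 in sKO. Each sKO library was above each Ctrl library, 1.35-fold on the means. The log2 fold change was 0.44 ± 0.29 (limma SE, 2 libraries per group, limma adjusted p = 0.132), so Ttn was not called. This SE, like those of the log2 fold changes below, is moderated toward a trend over all features tested. It is not the replicate spread of the single gene or peak. A call asked for a change beyond 0.5 on the log2 scale together with an adjusted p below 0.1. In bulk libraries, fewer marked cells and less mark per cell cannot be told apart.

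The H4K20me1 score of Neb (ENSMUSG00000026950, chromosome 2, 52136647 to 52378474, minus strand) was 4227 and 5629 in Ctrl against 7484 and 7869 in sKO, 1.56-fold higher on the means. Neb was called higher, its log2 fold change being 0.65 ± 0.29 (adjusted p by limma = 0.0274). The call was lost without Ctrl replicate 1 (log2 fold change 0.45), without sKO replicate 1 (0.69, adjusted p = 0.341) and without sKO replicate 2 (0.62, adjusted p = 0.407), while Ttn passed without Ctrl replicate 2 (0.63). The H4K20me1 score of Des (ENSMUSG00000026208, chromosome 1, 75360329 to 75368579, plus strand) was 187 and 304 in Ctrl against 250 and 216 in sKO. These ranges overlapped, and the log2 fold change was -0.04 ± 0.31 (limma adjusted p = 0.907).

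Of the 3 members tested, 1 was called higher and 0 lower, where 92.3% of the 13750 genes tested were called higher and 0% lower, and 12421 genes had an unadjusted p under 0.05, all higher. Both sKO libraries exceeded both Ctrl libraries for 2 of the 3 members and for 96.5% of all genes, and lay below them for 0 members and 0.0364% of genes. The log2 fold change of the median gene was 1.11, and against it Ttn stood 0.67 lower, Neb 0.46 lower and Des 1.15 lower. Des ranked 47 from the lowest of 13750 genes, at percentile 0.342, Ttn at percentile 5.0 and Neb at percentile 13.5. With the libraries scaled to equal totals, where limma called 24.0% of genes higher and 4.31% lower, Des was called lower (log2 fold change -0.96, adjusted p = 9.54e-05), and Ttn at -0.49 and Neb at -0.28 were not called although their adjusted p values were 2.45e-12 and 1.49e-06. The direction for Ttn and Neb thus depends on the scale between libraries. Scaling to equal totals shifts all genes by nearly the same amount and so leaves the distance to the median gene as it was, whereas under quantile normalisation, with the median gene at 0.0017, Ttn stood at -0.42, Neb at -0.20 and Des at -1.36, so Ttn and Neb came closer to the median gene and Des moved farther below it.

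**Figure D1:**
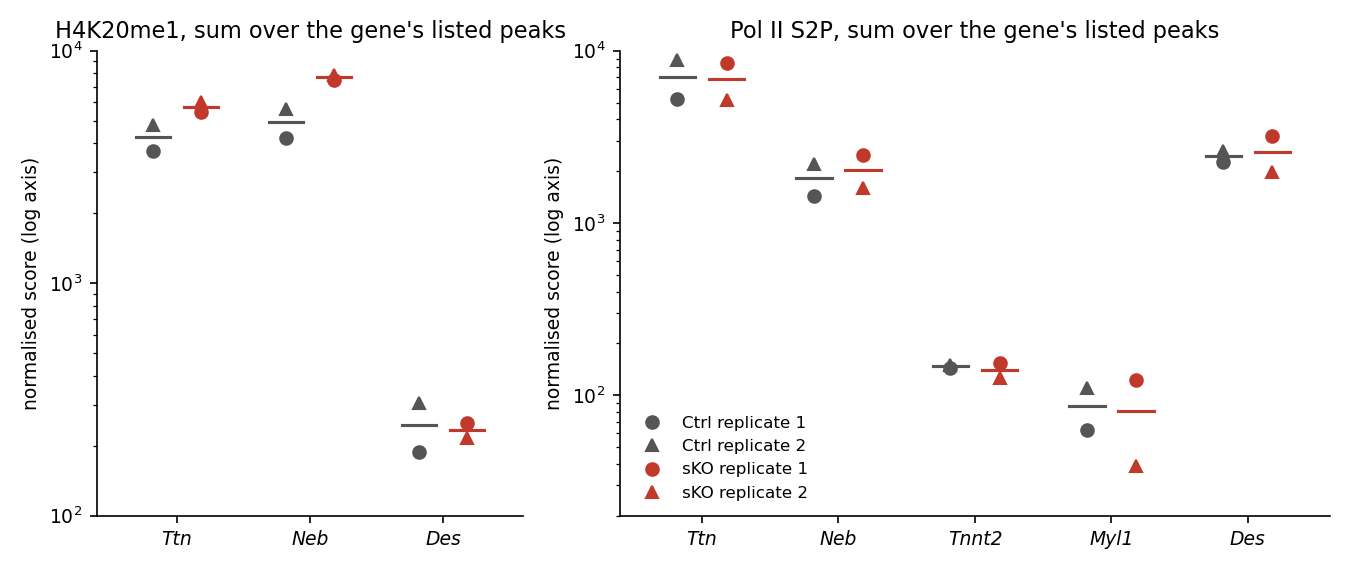
Scores summed over the listed peaks of each member on a log axis, for H4K20me1 (left) and Pol II S2P (right), with a point for each library (circles replicate 1, triangles replicate 2), grey for Ctrl, red for sKO, and a bar for each mean. The sKO points lie above the Ctrl points for Ttn and Neb in H4K20me1, and the genotypes overlap for Des and for all 5 genes in Pol II S2P.

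Per kb of peak the 3 genes changed rank between the genotypes. In Ctrl, Des had 34.1 per kb, Ttn 30.1 and Neb 29.5, all above the median gene at 23.2 and at percentiles 91.2, 82.6 and 80.6. In sKO, Neb had 45.9 per kb, Ttn 40.5 and Des 32.4, all below the median gene at 50.3 and at percentiles 21.4, 5.55 and 0.989. The neighbours in the order of the Ctrl levels did not differ beyond their spread, which was ± 11.5 (SD) for Des, ± 5.55 for Ttn and ± 5.93 for Neb, whereas in sKO (± 1.63 for Neb, ± 2.92 for Ttn and ± 3.34 for Des) the libraries of the 3 genes did not overlap. A fold change and its Ctrl level share the Ctrl values, so these ranks describe the 3 genes and are no test.

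The single H4K20me1 peaks told where along the genes the difference lay. Of the 18 peaks, 7 were called higher, 5 in Neb and 2 in Ttn, where 90.1% of the 40902 peaks tested were called, and 0 were called lower, where 0.00244% were. Both sKO scores exceeded both Ctrl scores at 11 of the 18 peaks, against 93.9% of all peaks tested and 93.8% with no minimum, and lay below them at 0, against 0.0269% and 0.0293%. Less change than in the median peak, which rose by 1.14 on the log2 scale, was seen at 17 of 18. All 18 passed the minimum mean score of 50. The count of 7 became 3 without Ctrl replicate 1, 12 without Ctrl replicate 2, 2 without sKO replicate 1 and 0 without sKO replicate 2. After scaling to equal totals, 1 member peak was called higher and 6 lower, where 25.8% and 3.32% of all peaks were.

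The exception with a change above the median peak was the most 5′ peak of Neb, chr2:52321800-52323199, 1400 bases within introns. Its scores were 26 and 19 in Ctrl against 72 and 178 in sKO, and its log2 fold change of 2.30 ± 0.65 (limma adjusted p = 0.000812) was at percentile 96.9 of all peaks. Both sKO libraries were higher, although 72 and 178 lie far apart. Toward the 3′ end the Neb peaks had smaller log2 fold changes, from 0.87 in the next peak over 0.60, 0.57, 0.61 and 0.46 to 0.18 in the last, which also extends past the gene. The rank correlation of change with distance from the start was -0.89 over the 7 Neb peaks, 0.0061 over the 10 Ttn peaks, and 0.11 in the median of the 845 genes with 7 or more tested peaks.

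In Ttn the peak nearest the start also changed most. It spans 76962000 to 76978399, rose from 399 and 498 in Ctrl to 753 and 789 in sKO and was called higher (0.79 ± 0.28 on the log2 scale, adjusted p by limma = 0.00592). The longest and highest Ttn peak, 38.8 kb from 76916400 to 76955199, had 1120 and 1369 in Ctrl against 1522 and 1524 in sKO and was not called (0.30 ± 0.27, adjusted p = 0.281). Of the remaining 8 peaks, the one from 76834200 to 76842599 was called (197 and 268 in Ctrl, 261 and 492 in sKO) although its groups overlapped, and the log2 fold changes of the others lay between -0.10 and 0.51. The first peak was the most changed one in 16.8% of genes with 7 or more peaks, so Ttn and Neb are among 142 of the 845 genes. The longest Neb peak, 75.6 kb from 52161400 to 52236999, had 2008 and 2665 in Ctrl against 3388 and 3704 in sKO and was called higher (0.61 ± 0.28, adjusted p = 0.0348).

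**Figure D2:**
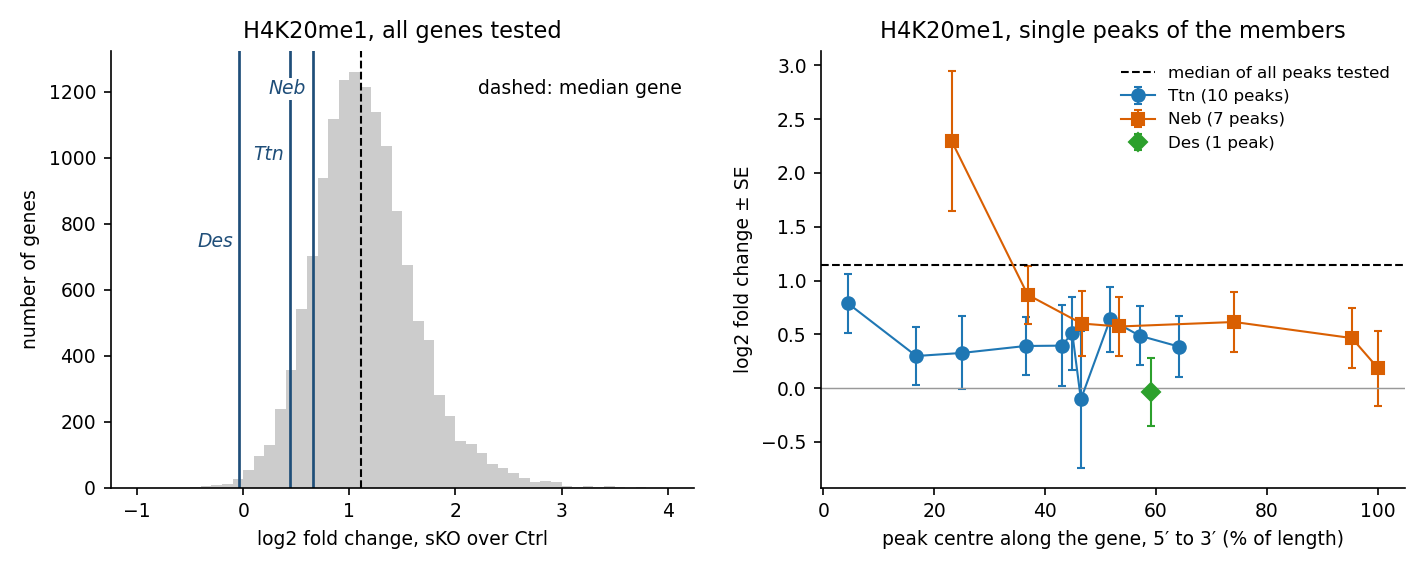
Left, histogram of the H4K20me1 log2 fold change (sKO over Ctrl) of the 13750 genes tested, with Des, Ttn and Neb as lines at -0.04, 0.44 and 0.65 and the median gene dashed at 1.11. Right, the log2 fold change with its SE for each member peak against the position of the peak centre along its gene, with the median peak dashed at 1.14, which only the first Neb peak exceeds.

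Around Des the change was steep over a short distance. The Des peak, chr1:75361600-75368799, covered 84.6% of the gene and had 34.1 per kb in Ctrl and 32.4 in sKO. The next peak downstream, from 75369800 to 75374599 and listed with Gm15179, had 62 and 88 in Ctrl against 245 and 238 in sKO and was called higher (1.70 ± 0.38, adjusted p = 3.13e-05). The one after it, from 75378000 to 75384799 and listed with Speg, the gene of a striated muscle kinase, had 50 and 65 in Ctrl against 388 and 373 in sKO and was called higher as well (2.72 ± 0.37, adjusted p = 1.47e-11), at percentile 99.1 of all peaks. In Ctrl these neighbours held 15.6 and 8.46 per kb, below Des, and in sKO they held 50.3 and 56.0 per kb, above Des.

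Members with no listed H4K20me1 peak were not all outside the domains, because each peak is credited to a single gene. The start of Myh3 (ENSMUSG00000020908, chromosome 11, 67078300 to 67102291, plus strand) and 13900 bases of the gene lay in a 41.0-kb peak listed with Sco1, which had 708 and 969 in Ctrl against 2270 and 2326 in sKO (1.47 ± 0.27, adjusted p = 4.98e-07, called higher). All 2983 bases of Acta1 (ENSMUSG00000031972, chromosome 8, 123891769 to 123894751, minus strand) lay in a 57.6-kb peak listed with Galnt2, whose listed span reaches over Acta1. That peak had 1583 and 2223 in Ctrl against 2900 and 3128 in sKO and was called higher, by 0.68 ± 0.28 (adjusted p = 0.0176), less than the median peak. No H4K20me1 peak overlapped Tnnt2, Myl1 or Actc1, and the peak nearest to Tnnt2 was listed with Lad1 (277 and 341 in Ctrl, 1035 and 1266 in sKO, 1.89 ± 0.28, adjusted p = 3.41e-10, called higher).

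**Figure D3:**
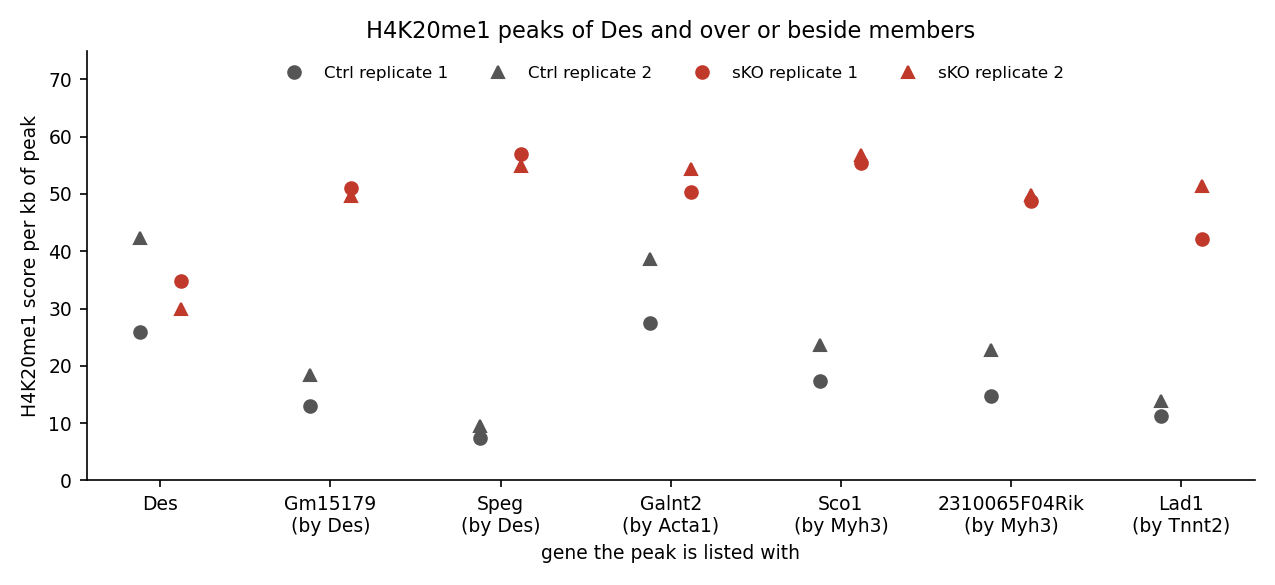
H4K20me1 score per kb of peak in each library (circles replicate 1, triangles replicate 2, grey Ctrl, red sKO) for the Des peak and for peaks over or beside members, named by the gene they are listed with. Des alone shows overlapping genotypes, while the sKO points of the other 6 peaks lie above their Ctrl points.

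For Pol II S2P, no member differed between the genotypes by more than its replicates did. The Pol II S2P score of Ttn was 5214 and 8796 in Ctrl against 8523 and 5162 in sKO, with a log2 fold change of -0.03 ± 0.42. Neb had 1432 and 2203 in Ctrl against 2470 and 1595 in sKO (0.16 ± 0.43), and Des had 2262 and 2635 in Ctrl against 3212 and 1987 in sKO (0.05 ± 0.43). The genotypes overlapped in these 3 genes. In each, sKO replicate 1 exceeded sKO replicate 2, as it did in the score summed over all peaks (4885638 against 3435908). Tnnt2 (ENSMUSG00000026414, chromosome 1, 135836354 to 135852260, plus strand) scored 144 and 150 in Ctrl against 154 and 126 in sKO (-0.08 ± 0.41). Myl1 (ENSMUSG00000061816, chromosome 1, 66924295 to 66945404, minus strand) scored 63 and 110 in Ctrl against 122 and 39 in sKO (-0.26 ± 0.46).

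Of the 5 members, 0 were called higher or lower by limma (adjusted p = 1 for each), where 0% of the 8531 genes tested were called in either direction and 100 had an unadjusted p under 0.05. The study itself reports a large number of genes with increased Pol II S2P in sKO. It used DESeq2 on coverage of whole genes, so its test and measure differ from those here. With equal totals 1.26% of genes were called higher and 0.855% lower, and still 0 of the 5 members. The 2 sKO scores exceeded the 2 Ctrl scores for 9.41% of genes and fell short of them for 4.52%, and did neither for any of the 5 members. Of the 236 member peaks, 51 passed the minimum mean of 50 and 0 of these were called, where 0.0447% of the 22353 peaks tested were called higher and 0.00447% lower. A single one had an unadjusted p under 0.05, the Ttn peak from 76707852 to 76708293 (31 and 29 in Ctrl, 96 and 63 in sKO), which was picked after its values were seen. Across all 236 peaks, both sKO scores exceeded both Ctrl scores at 12 and fell short of both at 23, whereas among all autosomal peaks 15.6% exceeded and 7.02% fell short. Ttn gave 4 and 16 of these peaks, Neb 7 and 5, Des 1 and 2, and Tnnt2 and Myl1 0 of either. Ttn holds 176 of the 236 peaks, Neb 47 and Des 8, so these counts show no concentration in Ttn. Peaks of the same gene are also not independent. Of the 51 tested, 4 lay above and 4 below, against 16.7% and 6.84%. With equal totals the Ttn peak from 76707852 to 76708293 was called higher (1.21 ± 0.39) and 1 member peak, at the start of Ttn, lower, where 2.48% and 1.18% of peaks were.

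Summed Pol II S2P was among the highest of all genes over Ttn (percentile 99.9), Des (99) and Neb (98.2) and lower over Tnnt2 (41.7) and Myl1 (18.5), but a sum grows with gene length and number of peaks. Per kb of peak and in the order of Ctrl, Des led with 257 ± 27.7 in Ctrl and 273 ± 91.1 in sKO (SD), at percentiles 96.0 and 96.6. Tnnt2 followed with 126 ± 3.62 in Ctrl and 120 ± 16.9 in sKO, Neb with 121 ± 36.2 and 135 ± 41.1, Myl1 with 103 ± 39.7 and 96.2 ± 70.1, and Ttn with 102 ± 36.8 and 99.4 ± 34.5, beside 139 and 151 for the median gene. Below Des, neighbours in this order did not differ beyond their spread. Most of the Des score lay in a single peak of 5450 bases, of which only 1246 are inside the gene. That peak held 339 per kb in Ctrl and 385 in sKO. The other Des peaks held 72.1 to 191 per kb in Ctrl and 75.3 to 152 in sKO, a range that includes the median gene.

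Along Ttn, Pol II S2P and H4K20me1 were spread differently. Cut into 10 equal parts from 5′ to 3′, Ttn held Pol II S2P peaks in every part, with the highest score in parts 2 and 3 (35.4 to 59.1 per kb of gene in Ctrl and 34.4 to 59.4 in sKO) and the lowest in part 4 (4.80 to 10.4 in Ctrl and 4.94 to 11 in sKO). H4K20me1 peaks covered 49.96 to 100% of parts 1 to 7, H4K20me1 was absent as a peak from parts 8 and 9, and covered 5.10% of part 10, from a peak listed with Plekha3 and not with Ttn. Pol II S2P nevertheless stood at 20.0 and 38.6 per kb in Ctrl and 36.3 and 22.1 in sKO in part 8. Of the 176 Ttn Pol II S2P peaks, 94 (53.4%) lay by at least 50% of their length in an H4K20me1 peak, against 44 of 47 in Neb and 7 of 8 in Des.

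The start of Ttn carried a Pol II S2P peak from 76982371 to 76983368, which covers the promoter sequence shown above. Its scores were 162 and 205 in Ctrl against 148 and 109 in sKO, so both sKO libraries were lower, with a log2 fold change of -0.52 ± 0.40 that did not pass (adjusted p = 1). With equal totals it was called lower (-0.66 ± 0.21, limma adjusted p = 0.0811). The highest and longest Ttn peak, 3019 bases from 76912395 to 76915413 with 48.7% of its length in exons, had 273 and 538 in Ctrl against 446 and 297 in sKO. The other Ttn peaks were short, the median length over all 176 being 292.5 bases.

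Neb differed in that neither mark reached its annotated start. Part 1 of the gene held no peak of either antibody, and part 2 none of H4K20me1. The 3 highest Pol II S2P peaks lay with their centres between 42.9 and 59.1 kb from that start. The one from 52335125 to 52336019 had 142 and 176 in Ctrl against 206 and 116 in sKO and covered the starts of 2 further annotated transcripts, among them the coding Neb-203, whose upstream sequence is shown above. The highest peak, from 52318976 to 52319854, had 280 and 307 in Ctrl against 363 and 260 in sKO, or 344 per kb of peak, and the one from 52321708 to 52322600 had 209 and 227 in Ctrl against 244 and 184 in sKO. Of the latter, 89.7% lay in the first Neb H4K20me1 peak, the one with the largest change among members. The other tested Neb peaks had log2 fold changes between 0.14 and 0.68, none called.

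**Figure D4:**
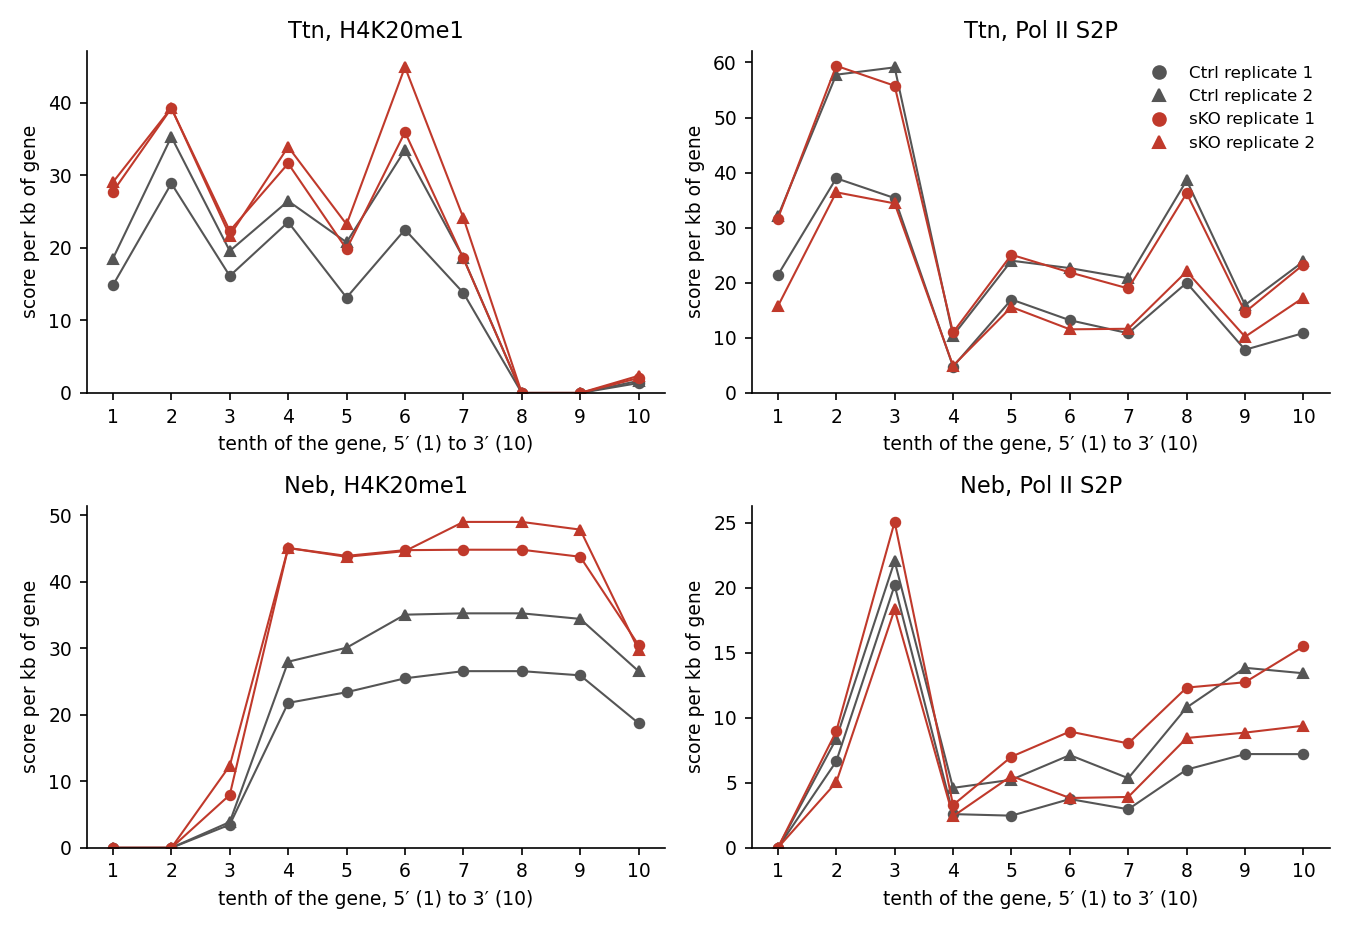
Score per kb of gene in 10 equal parts of Ttn (top) and Neb (bottom), from 5′ to 3′, for H4K20me1 (left) and Pol II S2P (right), with a line for each library (grey Ctrl, red sKO). Both H4K20me1 lines of sKO lie above those of Ctrl in every filled part but Ttn parts 5 and 7, the level is 0 in Ttn parts 8 and 9 and Neb parts 1 and 2, and in Pol II S2P the genotypes overlap in every filled part but Neb part 5.

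Past the 3′ ends Pol II S2P was denser than inside the genes. For the shares of genes with a peak within 10 kb past the end, any overlap with that window counted. For the scores per kb of window and the comparison of the windows, peaks were assigned by their centre. Within 10 kb beyond the annotated end, 7 of the 8 members had a Pol II S2P peak, Actc1 being the exception, against 38.8% of 20807 autosomal protein-coding genes and 61.9% of the 9617 with a listed Pol II S2P peak. In Des the score per kb of window averaged 53.0 in the gene and 201 in the 10 kb past it, in Ttn 24.0 and 89.5, in Neb 7.96 and 40.1, in Tnnt2 9.02 and 80.8, and in Myl1 3.96 and 13.3. Acta1 had 6.29 in the gene and 25.8 past it, and Myh3 no peak in the gene and 17.5 past it. The window past the end was denser in all 4 libraries for these 7 genes, against 52.3% of the 11468 protein-coding genes with a peak in either window. The share was 33.9% of those over 100 kb, the class of Ttn and Neb, and 55.6% of those under 30 kb, the class of the others. For Myh3, with no peak in the gene, any peak past the end gives this outcome.

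The largest of these was at Des, a 5450-base peak from 75367334 to 75372783 that began inside the gene and ran past its end. It had 1671 and 2023 in Ctrl against 2641 and 1551 in sKO (0.14 ± 0.43, adjusted p = 1), 362 per kb of peak, and made up most of the Des score. The 2 Tnnt2 peaks from 135857562 to 135859158 (209 and 254 in Ctrl, 299 and 219 in sKO) and from 135861803 to 135862713 (215 and 209 in Ctrl, 357 and 153 in sKO) were each higher than any peak inside Tnnt2, where the highest had 74 and 56 in Ctrl against 76 and 62 in sKO. Most of these peaks are listed with no gene or with another gene such as Plekha3, Galnt2 or Gm15179, so they did not enter the gene sums. CUT&RUN reads carry no strand, so a peak between converging genes could belong to either. None of the tested peaks in these windows was called.

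**Figure D5:**
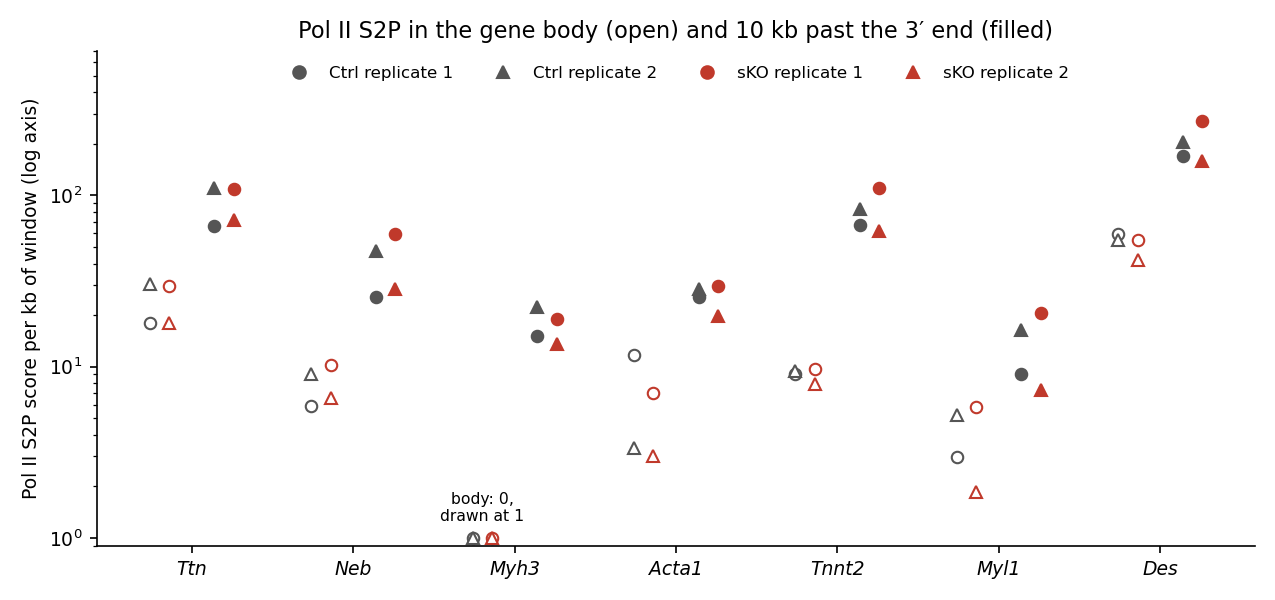
Pol II S2P score per kb of window on a log axis in the gene body (open symbols) and in the 10 kb past the annotated 3′ end (filled symbols) of 7 members, with circles for replicate 1, triangles for replicate 2, grey for Ctrl and red for sKO. The filled symbols lie above the open symbols of the same gene, and the Myh3 body, with no peak, is drawn at 1.

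At the start sites the members fell into different classes. A Pol II S2P peak lay within 1 kb of the start of Ttn, Des, Acta1 and Myh3, 4 of 8, against 37.1% of all autosomal protein-coding genes. Of the 5 members with a listed Pol II S2P peak 2 had one there, Ttn and Des, against 68.2% of all genes with a listed peak. At the other end, Neb, Tnnt2 and Myl1 had a peak past the end and none at the start, as did 14.3% of all genes and 15.4% of those with a listed peak. The Des start peak, from 75359927 to 75360609, had 98 and 156 in Ctrl against 117 and 89 in sKO. The peak over the Acta1 start, from 123894717 to 123895080, had 41 and 32 in Ctrl against 41 and 36 in sKO, a mean under the minimum for the test. The Myh3 peak nearest the start, from 67077517 to 67077899, had 38 and 41 in Ctrl against 49 and 23 in sKO. Nearest to Actc1 (ENSMUSG00000068614, chromosome 2, 114047282 to 114053548, minus strand) was a peak 6.35 kb from its nearest start, with 16 and 25 in Ctrl against 43 and 11 in sKO. The genotypes overlapped at each of these peaks.

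The other genes of the sarcomere and of muscle differentiation gave the background for the members, from 75 genes in 7 lists. For H4K20me1, 49 of the 52 tested were called higher and 0 lower, close to the 92.3% called higher among all genes, and the median log2 fold change was 1.35, against 0.44 for the 3 members and 1.11 for all genes. By list, 12 of 12 thick filament genes were called higher, 10 of 11 of the thin filament, 8 of 8 of the Z-disc, 7 of 7 of the M-band and other giant proteins, 2 of 2 intermediate filament genes, 8 of 8 of excitation-contraction coupling and 2 of 4 myogenic differentiation factors. With equal totals 21 were called higher and 1, Mef2a, lower, where 24.0% and 4.31% of all genes were, and without sKO replicate 2 the 49 became 32.

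The genes with the largest changes in each list stood above all 3 members. They were picked for the size of their change, so this is no contrast between the members and the lists. The slow troponins Tnni1 and Tnnt1 rose by 2.69 ± 0.30 and 2.65 ± 0.50 on the log2 scale, Tnni1 from 105 and 121 in Ctrl to 743 and 727 in sKO. Myh7, the slow myosin heavy chain, rose by 2.20 ± 0.28 and the fast Myh1 by 2.19 ± 0.41. At the Z-disc Cryab, a chaperone of desmin, rose by 2.53 ± 0.31 and Synpo2 by 2.38 ± 0.27. In the list of M-band and other giant proteins, Myom1, which links myosin filaments, rose by 2.25 ± 0.27 and Igfn1 by 2.02 ± 0.27. The other intermediate filament genes, Nes (1.73 ± 0.28) and Vim (1.06 ± 0.27), rose, as did Atp2a1 (1.97 ± 0.27) and Casq2 (1.69 ± 0.50) of calcium handling and Mef2c (2.0 ± 0.27) and the fusion factor Mymk (1.16 ± 0.33). All of these passed at adjusted p values from 7.78e-17 to 0.00121. Not called were Tpm3 (0.47), Mef2a (0.18) and Mef2d (0.48), which were named after their values were seen.

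For Pol II S2P 0 of the 46 genes tested in these lists were called in either direction by limma, and their median log2 fold change was 0.0039, beside -0.03 for the 5 members and 0.09 for all genes. Among those with the largest values in each list were Mylk2 (0.25) and Mybpc1 (-0.24), Lmod3 (0.37) and Tnnt1 (-0.28), Actn3 (-0.46) and Actn2 (-0.33), Igfn1 (-0.66), Nes (-0.22) and Vim (-0.12), Casq1 (0.59) and Casq2 (0.36), and Mef2c (0.36) and Mef2a (0.31). Each has an adjusted p of 1. With equal totals Igfn1 (-0.80) was called lower.

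The genes most like a member over all 8 libraries were sought among the 5849 genes tested for both antibodies, by Euclidean distance of the log2 scores less the library median. Nearest to Des were Rpl3 (distance 0.89), a ribosomal protein gene, and Hspa8 (0.99), a constitutive chaperone. Like Des they combined a flat H4K20me1 score (202 and 218 in Ctrl against 226 and 246 in sKO for Rpl3, 255 and 348 and 322 and 360 for Hspa8) with a high Pol II S2P score (3091 and 3344 and 3864 and 2496 for Rpl3). Nearest to Neb were Tead1 (0.48) and Ulk4 (0.54), and nearest to Ttn were Qki (1.21) and Cdon (1.22), so Ttn had no gene as near as the other members had. The measure describes these libraries only.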

How the data were processed

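CUT&RUN libraries of H4K20me1 and Pol II S2P from cultured Ctrl and sKO MuSCs were used, 2 per genotype and antibody, grouped by the genotype in the labels. The authors trimmed reads with Trimmomatic 0.39, aligned them to mm10 (GRCm38) with STAR 2.7.3a, removed duplicates with Picard 2.21.7 and scaled coverage by reads of Drosophila spike-in DNA (BDGP6). SICER and MACS2, which call peaks, stand among the submitters' tools, and the merging into union peaks is described for a parallel assay. The deposited score is the normalised coverage as a whole number per union peak, not a read count. The study states read numbers per library, which were not used here. The scores are no counts, so no counting interval is given, and whether the scale follows the spike-in was not checked. The authors also deposited, per peak, the fraction of its length inside the listed gene, used for 1 alternative.

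Scores were summed over peaks by gene identifier, and a semicolon that ends some symbols, Tnnt2 among them, was dropped. The gene coordinates of members are those of GENCODE M21, which matched the tables. Genotypes were compared on log2(score + 1) with limma 3.58.1 (trend) in R 4.3.3, over autosomal genes or peaks with a mean over 50, and calls needed a log2 fold change beyond 0.5 and, after Benjamini-Hochberg correction, p below 0.1, limits that follow the study's methods. Fold changes on this scale understate low scores. The study applied its limits in DESeq2 to coverage of whole genes, not to sums of listed peaks. An exact permutation test of 2 against 2 cannot go below p = 0.333 and was not used. Every member is named, and of each further list the genes called or, where 0 or over 4 were, the 2 with the largest change. One gene that this rule names is not reported here. The members and lists were chosen with earlier results of these data known. Alternatives were another pseudocount, no minimum, equal totals, quantile normalisation, a replicate block, leaving out each library, and other rules for the peaks of a gene.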

Additional observations from a re-analysis of the deposited data

How the results depend on the processing

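The scale between libraries decided most of the H4K20me1 results. With equal totals 0 members were called higher and 1 lower, 1 member peak higher and 6 lower, 21 list genes higher and 1 lower, and the members' median log2 fold change was -0.49, with Neb at -0.28 and Ttn at -0.49. With quantile normalisation the same counts were 0 and 1 members, 0 and 13 peaks and 15 and 4 list genes, the median was -0.42, Neb stood at -0.20 and Ttn at -0.42, and Des at -1.36 was called lower. Over all genes 3306 were then called higher and 593 lower with equal totals, and 1422 and 1531 with quantile normalisation, against 12690 and 0 as deposited. The all-gene count was 7392 without sKO replicate 1 and 5249 without sKO replicate 2. Over all H4K20me1 peaks, 36842 higher and 1 lower became 10558 and 1359 with equal totals, 4738 and 4746 with quantile normalisation, 23417 higher without sKO replicate 1 and 17895 without sKO replicate 2. In Pol II S2P, where 0 genes were called, equal totals called 108 higher and 73 lower and quantile normalisation 112 and 29. Its peaks, 10 higher and 1 lower, became 555 and 263 with equal totals, 474 and 153 with quantile normalisation, 0 and 0 with the replicate block and 112 and 0 without sKO replicate 2. For Pol II S2P, where 0 was called as deposited, equal totals called 1 list gene higher and 1 lower and 1 member peak higher and 1 lower, and quantile normalisation called 1 list gene higher. Equal totals turned Des to -0.091, quantile normalisation turned Des to -0.070 and Neb to -0.0044, leaving out peaks under 50% inside their gene turned Des to -0.26, and adding unlisted peaks up to 10 kb past the end, an alternative chosen after seeing the data, turned Tnnt2 to 0.10, none of them called. Leaving out a library moved the members called higher in H4K20me1 between 0 and 2, the member peaks between 0 and 12 and the list genes between 32 and 51, where the lone library of a genotype is assumed to vary like the pair of the other. It turned the sign of single genes: Des in H4K20me1 ranged from -0.39 to 0.31, and in Pol II S2P Des ranged from -0.30 to 0.40, Neb from -0.16 to 0.48, Myl1 from -1.08 to 0.55, Ttn from -0.41 to 0.35 and Tnnt2 from -0.22 to 0.067, with no Pol II S2P call. The pseudocount of 10 and the absence of a minimum left each count of called members, member peaks and list genes as it was, while over all Pol II S2P features the absence of a minimum moved the genes called higher from 0 to 1 and the peaks called higher from 10 to 3. The cause of these shifts was not tested.

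The replicate numbers are not known to pair the libraries. Deviations of same-numbered libraries correlated at 0.04 for H4K20me1 and -0.04 for Pol II S2P over genes, and a fit with the replicate block called 1 member gene higher in H4K20me1 and 0 in Pol II S2P, as without the block, and 8 member peaks in place of 7. Which differences the spike-in scale itself contributes could not be resolved with 2 libraries per group. Few Pol II S2P differences were resolved as deposited, where 10 of the 22353 peaks tested were called higher and 1 lower. Even the largest log2 fold change among the tested member peaks, 1.35 in Ttn, was not called as deposited, although it was called higher with equal totals.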
